A study of Bos taurus with 13 samples.

Results

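MicroRNAs (miRNAs) carried by extracellular vesicles (EVs) of follicular fluid were compared between always positive cows (APCs) and heifers. APCs were lactating Holstein-Friesian cows that stayed in positive energy balance from week 5 to week 10 after calving, and their fluid was taken at weeks 5 and 6. Heifers had not calved, were also in positive energy balance, and were sampled over 5 consecutive weeks, with no week after calving in the labels. The study held 5 APCs, of which 2 gave the 2 APC pools, and 8 heifers gave the 3 heifer pools. Which animals went into which pool is not stated, so p-values measure the spread between pools. Fluid came from large follicles by ovum pick-up, and fluid from cystic ovaries or mixed with blood had been discarded. The comparison asks how the vesicle miRNAs of lactating cows without an energy deficit differ from those of animals that do not lactate. Lactation, calving history and age go together in this design and cannot be told apart. The members are the 267 miRNAs listed in all 5 files, out of 311 listed in any of the 13 files of the series. The APC files also list 6 miRNAs that the heifer files do not, and the heifer files 29 that the APC files do not, and these were not analysed here.

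A miRNA is a short RNA that is cut from a hairpin and guides the Argonaute protein to messenger RNAs, which are then repressed. Most hairpins are trimmed in the nucleus by Drosha and in the cytoplasm by Dicer, and either arm of the hairpin (5p or 3p) can become the mature miRNA. Vesicles in the fluid around the oocyte can be released by cells of the follicle or arrive with the blood. Granulosa cells take up such vesicles, and the energy deficit of early lactation is known to reach the follicle through the composition of this fluid.

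The reads on members numbered 327316 and 421387 in the APC pools and 183497, 379829 and 346710 in heifer pools 1, 2 and 3. Levels are given in CPM, the reads of a miRNA scaled to the same total in each library, after the 5 libraries had been brought to a common scale with TMM factors, which are set from a trimmed average of the log ratios between libraries. On this scale 3 reads, the smallest number taken as visible, stood at 6.8 to 13.1 CPM, and this floor covers counting error only. The TMM factors were 0.85 and 0.72 in the APC pools and 1.252, 1.158 and 1.127 in the heifer pools. The factors of the groups did not overlap, and the scaling alternatives are therefore given beside the counts of calls. After low miRNAs had been removed, 224 members remained, and limma was run on log2(CPM + 5). The 5 CPM are a pseudocount, which makes the fold change of a low miRNA look smaller than it was. To be called, a miRNA had to pass 3 thresholds: a log2 fold change of 1 or more in size, p under 0.05, and p adjusted by Benjamini and Hochberg not above 0.25.

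In APCs, 22 miRNAs were higher and 7 lower than in heifers. The 22 were led in abundance by miR-320a, miR-423-5p, miR-23a, miR-103 and miR-107, and 10 of them belonged to the 30 most abundant members. The 7 that were lower were miR-184, miR-205, miR-204, miR-196a, miR-196b, miR-194 and miR-30b-5p, which were scarce to moderate. The 29 calls made up 12.9% of the tested miRNAs, with 9.82% called higher and 3.12% called lower. Log2 fold changes ran from 1.15 to 3.01 among the 22 and from -4.00 to -1.14 among the 7, against a median of 0.03 over all tested miRNAs. The median level (mean over the 5 pools) was 6316 CPM for the miRNAs called higher, 98.4 CPM for those called lower and 493.3 CPM for all tested miRNAs. The pools of the groups did not overlap for any of the 29 called miRNAs, while they did not overlap for 82 tested miRNAs in all (36.6%).

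**Figure D1:**
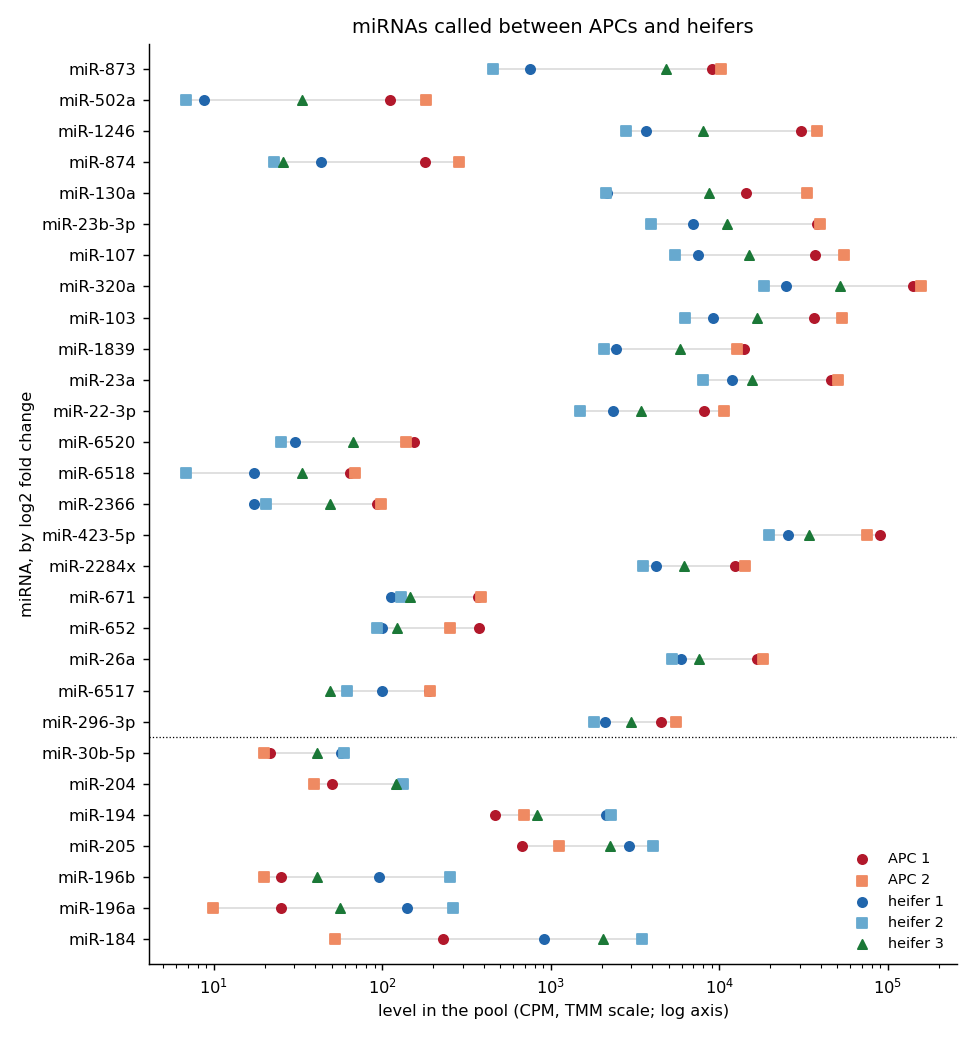
Level of each called miRNA in the 5 pools, in CPM on a log axis, with miRNAs ordered by log2 fold change and a dotted line between the 22 higher and the 7 lower in APCs. Red and orange symbols mark APC pools 1 and 2, and blue, light blue and green symbols mark heifer pools 1, 2 and 3. Heifer pool 3 was the heifer pool nearest to the APC pools for 20 of the 22 miRNAs called higher.

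The lowest adjusted p-value was 0.0562, so no miRNA passed at 0.05 in this fit, while 38 had an unadjusted p-value under 0.05 (25 higher and 13 lower in APCs). This outcome depends on the processing: limma had 19 called miRNAs at an adjusted p-value of at most 0.05 with upper quartile factors, 8 with no filter, 6 with a pseudocount of 20 CPM, 2 with total counts and 19 without heifer pool 3, DESeq2 had 22, and edgeR's quasi-likelihood test had 0. Scaling by total counts gave 14 called higher and 47 called lower, with a median log2 fold change of -0.54 over all tested miRNAs. The deposited values as they stand gave 21 higher and 28 lower with a median of -0.31, and upper quartile factors gave 27 higher and 8 lower with a median of 0.16. None of the 29 miRNAs changed direction under any of these scalings. The number of calls was 3 without heifer pool 1, 46 without APC pool 1, 44 without APC pool 2, 22 without heifer pool 2 and 46 without heifer pool 3. With an APC pool left out, the APC group is a single pool, the spread comes from the heifer pools, and the lone pool is assumed to vary as they do. The 3 calls left without heifer pool 1 were miR-874, miR-1246 and miR-184. Of the 29, 24 remained called without APC pool 1, 22 without APC pool 2, 21 without heifer pool 2 and 29 without heifer pool 3. Those lost without APC pool 1 were miR-194, miR-196b, miR-30b-5p, miR-6518 and miR-873. Without APC pool 2, miR-130a, miR-196b, miR-2366, miR-296-3p, miR-30b-5p, miR-6518 and miR-873 were lost. Without heifer pool 2, miR-194, miR-196b, miR-204, miR-2366, miR-296-3p, miR-30b-5p, miR-6517 and miR-6518 were lost. Total-count scaling lost miR-2284x, miR-2366, miR-26a, miR-296-3p, miR-6517, miR-6518, miR-652 and miR-671.

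**Figure D2:**
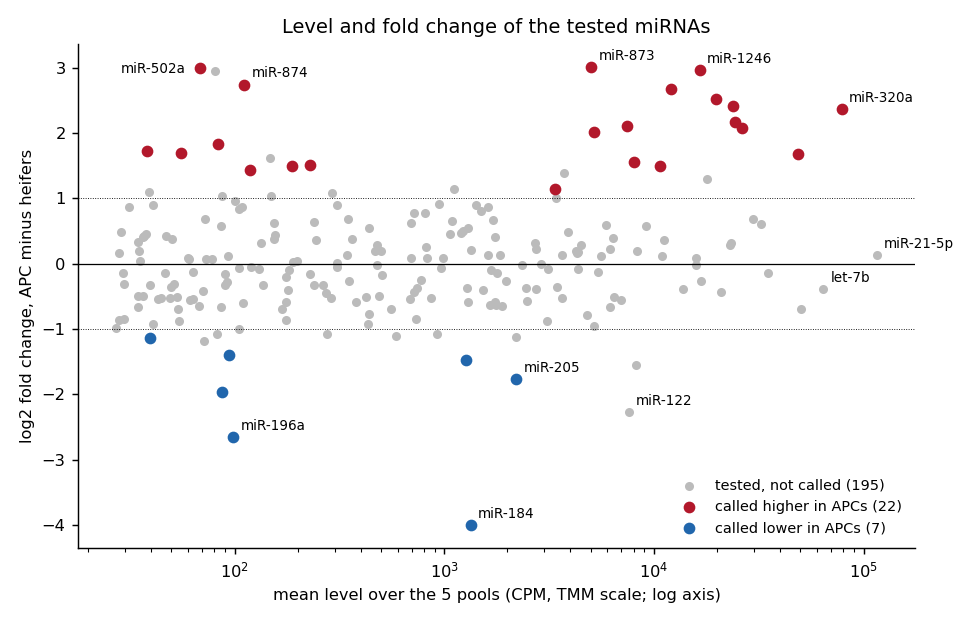
Mean level over the 5 pools (CPM, log axis) against the log2 fold change of APCs minus heifers for the 224 tested miRNAs. Red points are the 22 called higher in APCs, blue points the 7 called lower, grey points the 195 not called, and dotted lines mark a log2 fold change of 1 and -1. The red points fall into an abundant and a scarce cloud, and the largest decrease is that of miR-184.

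The share of reads does not depend on the scaling. The 22 miRNAs called higher took 42.5% and 41.3% of the reads in the APC pools, but 13.8%, 9.45% and 21.7% in heifer pools 1, 2 and 3. The 95% Wilson intervals of these shares were at most 0.17 percentage points wide on each side, and these intervals too cover counting error only. Since these miRNAs were chosen by their difference, the shares are a description. The shift lay mostly in 6 miRNAs, namely miR-320a, miR-423-5p, miR-103, miR-107, miR-23a and miR-23b-3p, which together held 33.1% and 31.0% of the reads in APCs and 10.8%, 7.15% and 16.2% in heifers. The share of miR-21-5p, the most abundant member and a survival factor of granulosa cells, was 5.87% and 13.6% in the APC pools and 9.88%, 14.3% and 13.1% in the heifer pools. Its groups overlapped, and its log2 fold change was 0.13 ± 0.49 (SE, adjusted p = 0.913).

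**Figure D3:**
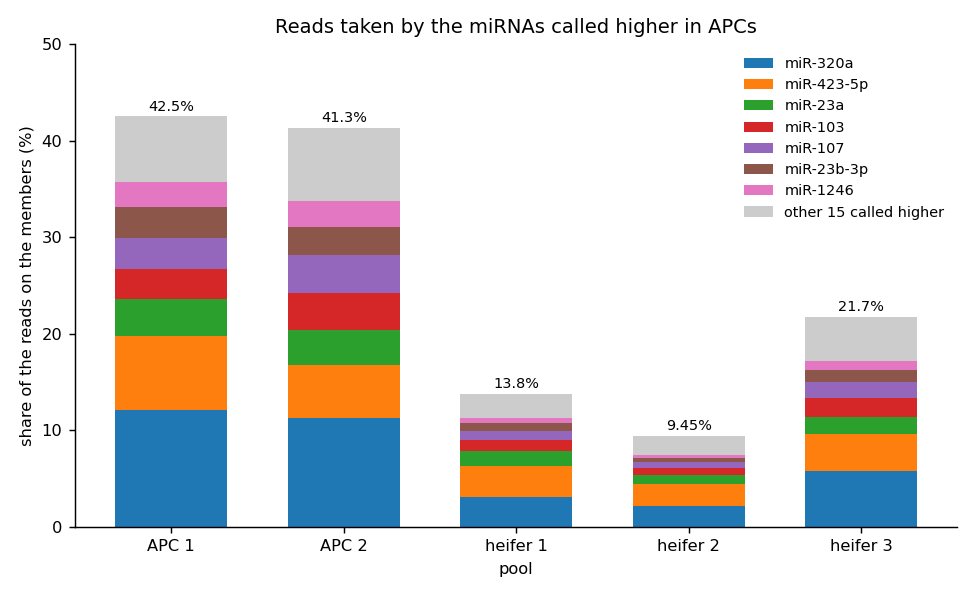
Share of the reads on the 267 members, in percent, that fell on the 22 miRNAs called higher in APCs, stacked by miRNA for each pool. The bars reach 42.5% and 41.3% in the APC pools and 13.8%, 9.45% and 21.7% in the heifer pools, and miR-320a forms the largest block in both APC pools and in heifer pool 3.

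Among 5 tested miRNAs that are made without Drosha or share their sequence with other small RNAs, 3 were called higher, against 9.82% of all tested miRNAs. This list, like the other lists below, was drawn up with earlier results of these data known. Its count beside that share is therefore a description and no sign of enrichment. miR-320a, whose hairpin reaches Dicer without a Drosha cut, had 141919 and 156686 CPM in the APC pools and 25027, 18381 and 51690 CPM in the heifer pools. Both APC pools thus exceeded the highest heifer pool, pool 3, and the log2 fold change was 2.37 ± 0.48 (SE, adjusted p = 0.0562). miR-1246, whose sequence also lies in the U2 spliceosomal RNA, had 30470 and 37750 CPM against 3675, 2793 and 8033 CPM, a log2 fold change of 2.96 ± 0.50 (adjusted p = 0.0562). miR-1839 had 13978 and 12760 CPM against 2443, 2074 and 5878 CPM, with a log2 fold change of 2.11 ± 0.51 (adjusted p = 0.0663). Whether the reads of miR-1246 came from its hairpin or from a longer RNA was not tested. The other members of the list did not pass. miR-484, whose hairpin starts at a capped transcription start, had a log2 fold change of -0.41, and miR-877, which is spliced out as a short intron, one of 0.33. The median of the list was 2.11, and it lay between 1.52 and 2.24 under the other scalings.

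Both miR-103 and miR-107, which repress insulin signalling in liver and fat and lie in introns of the pantothenate kinase genes PANK3, PANK2 and PANK1, were higher in APCs. miR-107 had 37123 and 54609 CPM in APCs against 7432, 5483 and 14958 CPM in heifers, and miR-103 had 36376 and 53745 CPM against 9187, 6275 and 16766 CPM. Their log2 fold changes were 2.41 ± 0.49 and 2.16 ± 0.48 (adjusted p = 0.0562 for each). The mature sequences of this pair are nearly the same, and how the authors' counting shared reads between them is not known, so the values of each are uncertain on their own. The log2 ratio of miR-103 to miR-107 was -0.03 and -0.02 in the APC pools and 0.31, 0.19 and 0.16 in the heifer pools. It was therefore lower in both APC pools, by 0.25 in the mean (exact two-sided permutation test, p = 0.1, the smallest that 2 pools against 3 allow). Over the 32 ratios computed within a pool, the lowest adjusted value of this test was 0.356, so none passed a correction.

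In the clusters of miR-23, miR-24 and miR-27, the miR-23 members were the ones called. miR-23a had 45824 and 50395 CPM in APCs and 11887, 7958 and 15688 CPM in heifers, and miR-23b-3p had 37741 and 39532 CPM against 6932, 3941 and 11141 CPM. Their log2 fold changes were 2.07 ± 0.38 and 2.52 ± 0.48 (adjusted p = 0.0562 for each). On the bovine RefSeq assembly, the hairpins of miR-27a and miR-24 lie within 10 kb of miR-23a, and those of miR-27b and miR-24 within 10 kb of miR-23b. These neighbours, which are cut from the same transcripts, were not called. miR-27b had 12225 and 10467 CPM against 9318, 8385 and 14474 CPM, with overlapping groups and a log2 fold change of 0.12 ± 0.37 (adjusted p = 0.904). miR-24-3p had a log2 fold change of 0.57 (adjusted p = 0.605) and miR-27a-3p one of 0.78 (adjusted p = 0.431). The log2 ratio of miR-23b-3p to miR-27b was 1.63 and 1.92 in the APC pools and -0.43, -1.09 and -0.38 in the heifer pools. miR-23b-3p thus exceeded its neighbour in APCs and not in heifers, a difference of 2.40 in the log2 ratio (exact p = 0.1). The log2 ratio of miR-23a to miR-27a-3p was 6.07 and 4.99 against 4.27, 3.87 and 4.56, a difference of 1.3 (exact p = 0.1). Both miR-23 members were called for their difference between the same pools, so these ratios to their neighbours are descriptions. miR-23a and miR-23b-3p also have nearly the same mature sequence, so reads may have been shared between them. The ratio of each to its own neighbours is therefore uncertain.

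Other abundant miRNAs were higher in APCs too. miR-423-5p, which lies in the NSRP1 gene and is often abundant in plasma, had 89683 and 75266 CPM in APCs and 25476, 19761 and 33818 CPM in heifers, a log2 fold change of 1.68 ± 0.35 (adjusted p = 0.0562). miR-22-3p, a repressor of the oestrogen receptor, had 8119 and 10619 CPM against 2338, 1496 and 3451 CPM, a log2 fold change of 2.01 ± 0.44 (adjusted p = 0.0562). miR-26a, which restrains growth through EZH2 and lies in introns of the phosphatase genes CTDSPL and CTDSP2, had 16801 and 18200 CPM against 5891, 5231 and 7598 CPM. Its log2 fold change was 1.5 ± 0.33 (adjusted p = 0.0562), whereas that of its relative miR-26b was 0.29 ± 0.32 (adjusted p = 0.668). The log2 ratio of miR-26a to miR-26b was 1.81 and 1.78 in APCs and 0.63, 0.25 and 0.85 in heifers, a difference of 1.22 (exact p = 0.1). These pools showed no overlap in that ratio, but miR-26a was called for its difference between the same pools, so the ratio is a description.

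miR-130a, known for its part in vessel growth, had 14387 and 32963 CPM in APCs and 2160, 2136 and 8668 CPM in heifers, with a log2 fold change of 2.67 ± 0.72 (adjusted p = 0.0872). Within its family, miR-130b stood at a log2 fold change of 0.62 and miR-301a at -1.0, and neither was called. miR-873, which lies in the LINGO2 gene, had 9002 and 10161 CPM against 748.9, 452.6 and 4810 CPM, a log2 fold change of 3.01 ± 0.95 (adjusted p = 0.152), and was the only one of the 29 that edgeR's quasi-likelihood test on the reads did not call. Heifer pool 3 lay far above the other two heifer pools for both miR-130a and miR-873, and without it their log2 fold changes were the highest of those seen with a pool left out, 3.34 and 4.03. miR-2284x, of a large family found in ruminants, had 12354 and 14197 CPM against 4189, 3507 and 6152 CPM, a log2 fold change of 1.56 ± 0.37 (adjusted p = 0.0663). miR-296-3p had 4487 and 5542 CPM against 2086, 1808 and 2995 CPM and the smallest increase among the calls, 1.15 ± 0.37 (adjusted p = 0.163).

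A further 8 miRNAs called higher were scarce, with at most 385.5 CPM in any pool. miR-874, which lies in the KLHL3 gene, had 179.6 and 283.3 CPM in APCs and 43.5, 22.7 and 25.6 CPM in heifers, from 50 and 86 reads against 10, 10 and 10. Its log2 fold change of 2.74 ± 0.44 (adjusted p = 0.0562) was among the largest. miR-502a had 111.4 and 181.2 CPM against 8.71, 6.82 and 33.3 CPM, a log2 fold change of 3.0 ± 0.61 (adjusted p = 0.0562). In heifer pools 1, 2 and 3 it rested on 2, 3 and 13 reads, so its level was below the floor in pool 1, at it in pool 2 and above it in pool 3. Its hairpins lie in the CLCN5 gene on the X chromosome together with those of miR-362, miR-532 and miR-660. miR-660 had 1408 and 1568 CPM against 857.8, 1130 and 1198 CPM with a log2 fold change of 0.5, and miR-532 one of -0.25, and neither was called.

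miR-671, of the CHPF2 gene, had 370.0 and 385.5 CPM in APCs and 113.2, 129.6 and 145.9 CPM in heifers, with little spread within either group and a log2 fold change of 1.51 ± 0.34 (adjusted p = 0.0562). miR-652 had 373.6 and 250.4 CPM against 100.1, 93.2 and 122.9 CPM (log2 fold change 1.5 ± 0.37, adjusted p = 0.0691). The other 4 carry bovine miRNA numbers, and their roles are not well known. miR-6520 had 154.5 and 138.4 CPM against 30.5, 25.0 and 66.6 CPM, and miR-6517 had 190.4 and 191.1 CPM against 100.1, 61.4 and 48.6 CPM. miR-2366 had 93.4 and 98.8 CPM against 17.4, 20.5 and 48.6 CPM, and miR-6518 had 64.7 and 69.2 CPM against 17.4, 6.82 and 33.3 CPM. Their log2 fold changes lay between 1.44 and 1.83, with adjusted p-values of 0.0819 to 0.168. In heifer pools 1 and 2, miR-6518 rested on 4 and 3 reads.

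Among the miRNAs that were lower in APCs, miR-184 changed most. This miRNA, abundant in the epithelium of the cornea and lens, had 229.9 and 52.7 CPM in APCs and 905.7, 3452 and 2035 CPM in heifers. Its log2 fold change was -4.00 ± 0.77 (adjusted p = 0.0562), and it was -1.95 between the replicate 1 pools alone. miR-205, which maintains epithelial identity by repressing ZEB1 and ZEB2, had 675.4 and 1120 CPM against 2909, 4053 and 2250 CPM, a log2 fold change of -1.77 ± 0.42 (adjusted p = 0.0663). Of 9 tested epithelial miRNAs, 2 were called lower, against 3.12% of all tested miRNAs, and 7 were not called. The log2 fold change was negative for 6 of the 9, among them miR-183 at -0.92, miR-182 at -0.49, miR-200c at -0.37 and miR-200b at -0.36. For each of these named miRNAs the groups overlapped, with APC pool 1 below all heifer pools. APC pool 2 was above all heifer pools for miR-182, miR-200c and miR-200b. miR-200a, which acts with miR-205 on ZEB1, had 2346 and 13755 CPM in APCs and 4337, 6586 and 3940 CPM in heifers (log2 fold change 0.23, adjusted p = 0.904). The list had a median log2 fold change of -0.37. Summed over all its members, it had 6599 and 30927 CPM in APCs and 15283, 24737 and 17014 CPM in heifers, with overlap.

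miR-204, which lies in the TRPM3 gene, had little spread within groups, with 50.3 and 39.5 CPM in APCs and 126.3, 131.9 and 120.3 CPM in heifers and a log2 fold change of -1.40 ± 0.35 (adjusted p = 0.0722). miR-196a and miR-196b, which are encoded in the HOX clusters and repress HOX genes, were both lower. miR-196a had 25.1 and 9.88 CPM (7 and 3 reads) against 139.3, 261.5 and 56.3 CPM, and miR-196b had 25.1 and 19.8 CPM (7 and 6 reads) against 95.8, 252.4 and 41.0 CPM. Their log2 fold changes were -2.65 ± 0.69 (adjusted p = 0.0793) and -1.96 ± 0.72 (adjusted p = 0.230). This pair also has nearly the same sequence, so reads may have been shared between them. The other HOX miRNAs, miR-10b and miR-10a, were far more abundant and were not called (log2 fold changes 0.20 and 0.31). miR-30b-5p had 21.6 and 19.8 CPM against 56.6, 59.1 and 41.0 CPM, from 6 reads in each APC pool (log2 fold change -1.14 ± 0.39, adjusted p = 0.197). Its close neighbour miR-30d, with 3176 and 6128 CPM against 5325, 8453 and 7716 CPM, had overlapping groups and a log2 fold change of -0.67 (adjusted p = 0.467).

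miR-194, which is abundant in liver and gut and shares its clusters with miR-192 and miR-215, had 463.4 and 691.9 CPM in APCs and 2112, 2277 and 826.9 CPM in heifers (log2 fold change -1.48 ± 0.53, adjusted p = 0.223). Its cluster neighbours had log2 fold changes of -1.55 for miR-192 (adjusted p = 0.294) and -1.12 for miR-215 (adjusted p = 0.437). miR-122, the main miRNA of hepatocytes, had 661.0 and 5779 CPM in APCs and 15527, 10796 and 5100 CPM in heifers. APC pool 1 was below all heifer pools, but APC pool 2 lay above heifer pool 3, and the log2 fold change of -2.27 ± 0.93 did not pass (adjusted p = 0.284). The groups overlapped for miR-192 and miR-215 too. The median of the 4 miRNAs of liver, gut and kidney was -1.51, and it stayed between -2.10 and -1.38 under the other scalings. Their sum was 3617 and 15004 CPM in the APC pools and 35090, 29561 and 12995 CPM in the heifer pools. APC pool 1 was thus the lowest, and the groups overlapped.

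The arms of a hairpin are cut from the same precursor. In the ratio of the arms within a pool the scaling factor cancels, apart from the pseudocount of 5 CPM added to each, which matters for scarce arms. Both arms were members for 21 hairpins, and both were tested for 14. For miR-423, miR-22, miR-296 and miR-23b, an arm was called for its difference between these pools, so their ratios are descriptions. The log2 ratio of miR-423-5p to miR-423-3p was 4.66 and 4.88 in the APC pools and 3.06, 2.55 and 3.44 in the heifer pools, a difference of 1.75 (exact p = 0.1). The rise of miR-423-5p was not shared by the 3p arm, which had 3542 and 2557 CPM against 3052, 3370 and 3108 CPM and a log2 fold change of -0.08 ± 0.33. For miR-22, the log2 ratio of 5p to 3p was -6.17 and -5.74 in APCs and -4.67, -4.71 and -5.04 in heifers, a difference of -1.15 (exact p = 0.1). miR-22-5p had a log2 fold change of 0.87 and was not called. For miR-296 the difference was -1.48 (exact p = 0.1), since miR-296-5p had 21.6 and 46.1 CPM in APCs and 26.1, 43.2 and 61.4 CPM in heifers. For miR-23b it was -2.0 (exact p = 0.2), with a 5p arm too scarce to be tested.

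Among the 21 pairs, the ratio did not overlap between the groups in 9, with the balance towards 5p in APCs in 4 and towards 3p in 5. For the levels of single tested miRNAs, 36.6% did not overlap, and 9 of 21 is near that share. miR-151, chosen after its values were seen, had the largest difference among hairpins with both arms tested and neither called. miR-151-5p had 219.1 and 210.9 CPM in APCs and 87.1, 84.1 and 145.9 CPM in heifers, and miR-151-3p had 3373 and 2431 CPM against 3819, 4696 and 3989 CPM. Neither arm was called (log2 fold changes 1.03 and -0.53), but their log2 ratio differed by 1.57 between the groups (exact p = 0.1). By contrast, the log2 ratio of the arms of miR-2313 differed by -0.01 and overlapped.

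**Figure D4:**
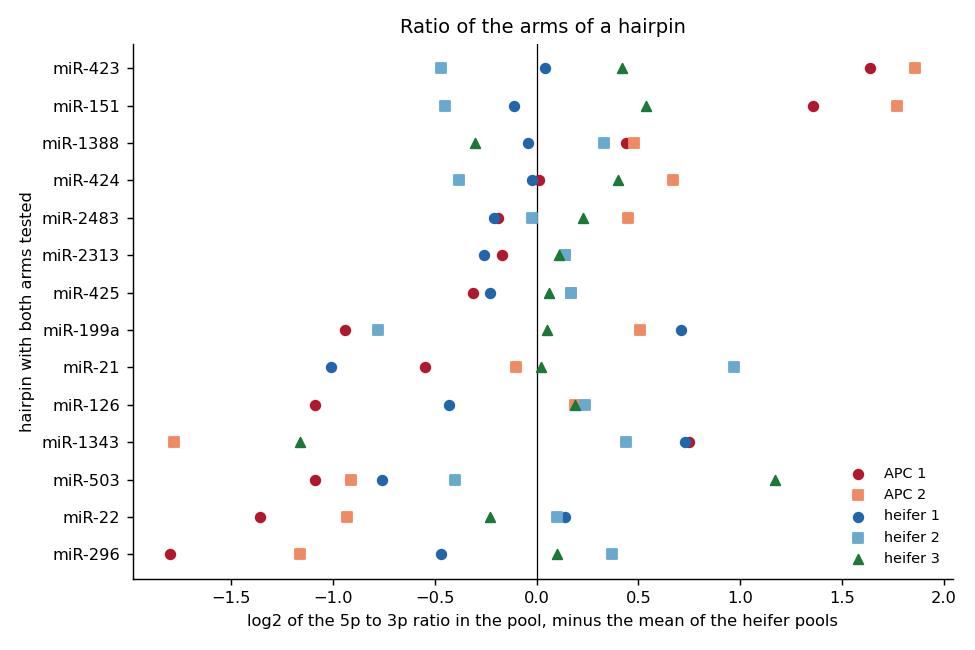
Log2 of the ratio of the 5p to the 3p arm in each pool, minus the mean of the 3 heifer pools, for the 14 hairpins with both arms tested. Symbols stand for pools, red and orange for APCs. The APC pools lie to the right of all heifer pools for miR-423, miR-151 and miR-1388 and to the left for miR-503, miR-22 and miR-296.

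No single member of the following large families, which are abundant in most cells, was called in the main fit, and no family was tested as a set. In the let-7 family, which promotes differentiation, 0 of 9 tested members were called by limma, edgeR or DESeq2 (1 had an unadjusted p under 0.05), and all 9 had negative log2 fold changes, from -0.87 to -0.15. The median of -0.39 stayed between -0.98 and -0.26 under the other scalings. The family took 11.8% and 8.90% of the reads in the APC pools and 21.6%, 22.2% and 15.9% in the heifer pools. All members not called took together 57.4% and 58.5% in APCs and 85.5%, 89.3% and 77.7% in heifers. That fall is the counterpart of the larger share of the miRNAs called higher, which were chosen by their difference. It does not show a fall in each family, and the family shares are read beside it. let-7b, the most abundant, had 55958 and 50441 CPM in APCs and 73097, 90866 and 51080 CPM in heifers (log2 fold change -0.39, adjusted p = 0.605), and let-7a-5p had a log2 fold change of -0.15. In the miR-17-92 cluster and its paralogs, which drive proliferation, 0 of 10 tested were called by limma or edgeR and 1 by DESeq2, and 0 had an unadjusted p under 0.05 in limma. miR-92a, with 28433 and 48161 CPM against 21374, 17043 and 33388 CPM, had a log2 fold change of 0.69, and miR-92b one of 1.39 (adjusted p = 0.320). The median of that list was 0.13 and turned to -0.45 with total counts. Its share of the reads was 7.71% and 6.52% in APCs and 8.18%, 6.70% and 8.07% in heifers, with overlap. miR-16b, of the growth-restraining miR-15 and miR-16 family, had 49420 and 26143 CPM against 62190, 65922 and 47297 CPM (log2 fold change -0.69, adjusted p = 0.431). That family took 5.37% and 2.68% of the reads in APCs and 9.36%, 9.16% and 7.46% in heifers, without overlap. miR-143, typical of smooth muscle and stroma, had a log2 fold change of 0.61 (adjusted p = 0.496).

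Of 14 tested miRNAs with a known place in granulosa cells and follicles, 1 was called higher, miR-873, and 13 were not called. A count of 1 in 14 is near the 9.82% called higher among all tested miRNAs. miR-202, an miRNA of the gonads, was present in all pools, with 5525 and 2942 CPM in APCs and 4123, 3107 and 6044 CPM in heifers (log2 fold change -0.08). miR-378, known to repress aromatase, had a log2 fold change of 0.20. The median of the list was 0.16, and it was -0.42 with total counts. In the imprinted DLK1-DIO3 cluster, 0 of 8 tested members were called by limma, edgeR or DESeq2 and 0 had an unadjusted p under 0.05, all 8 had negative log2 fold changes with a median of -0.53, and their pools did not overlap for 5, against 36.6% of all tested miRNAs. Of 9 tested members of the ruminant families miR-2284 and miR-2285, 1 was called higher, miR-2284x, and 8 of 9 had positive log2 fold changes with a median of 0.69. Of the 9 miRNAs abundant in bovine milk, 1 was called, miR-26a, and the median was 0.08, which turned to -0.51 with total counts and -0.27 with the deposited values. A count of 1 in 9, here and for miR-2284 and miR-2285, is near the 9.82% called higher over all tested miRNAs.

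Of the 18 tested in the list of other bovine miRNA numbers, 4 were called higher, against 9.82% of all, and the median was 0.12, which turned to -0.45 with total counts and -0.23 with the deposited values. In the families of miR-29, miR-148, miR-181, miR-221 and miR-99 with miR-125, none of 3, 3, 2, 2 and 5 tested members was called by limma, edgeR or DESeq2 or had an unadjusted p under 0.05, with medians of 0.36, 0.08, 0.05, -0.26 and 0.49. Of these medians, the ones of miR-29, miR-148, miR-181 and miR-99 changed sign with total counts.

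**Figure D5:**
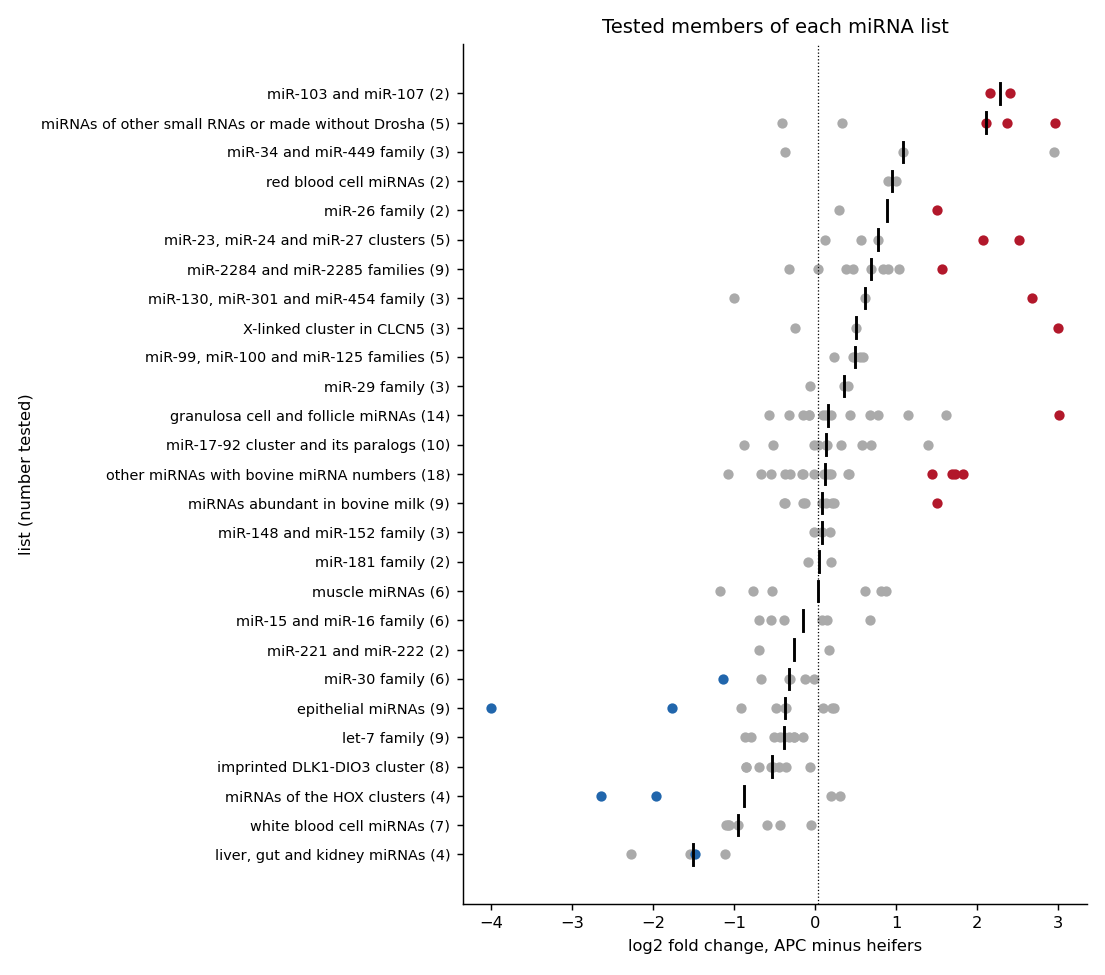
Log2 fold change (APCs minus heifers) of each tested member of 27 miRNA lists, with the number tested in brackets, a black bar at the median of the list and a dotted line at the median of all tested miRNAs, 0.03. Red points were called higher and blue points lower in APCs. Lists share some members, and they run from miR-103 and miR-107 with a median of 2.28 down to the miRNAs of liver, gut and kidney with a median of -1.51.

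Vesicles of blood cells can enter fluid samples, and markers of these cells were read in the same pools. The red blood cell miRNAs miR-486 and miR-451 summed to 9354 and 2109 CPM in APCs and 3488, 1965 and 1631 CPM in heifers, so APC pool 1 stood out and the groups overlapped. Neither was called by limma, edgeR or DESeq2 or had an unadjusted p under 0.05. The white blood cell list summed to 5396 and 8003 CPM in APCs and to 10798, 13118 and 11448 CPM in heifers, without overlap. Of its 7 tested members, 0 were called by limma or edgeR and 2 by DESeq2, 2 had an unadjusted p under 0.05, all 7 had negative log2 fold changes, and the median was -0.95 (between -1.54 and -0.82 under the other scalings). miR-223, the marker of granulocytes and monocytes, had 298.2 and 372.3 CPM in APCs against 544.3, 1135 and 599.0 CPM in heifers (log2 fold change -1.10, adjusted p = 0.268). miR-342, the most abundant of the list, had 2802 and 3858 CPM against 6296, 7046 and 5824 CPM and an adjusted p-value of 0.211, but its log2 fold change of -0.95 did not reach 1. Of the skeletal muscle and smooth muscle miRNAs, 0 of 6 tested were called by limma or edgeR and 1 by DESeq2, 1 had an unadjusted p under 0.05, and the median was 0.04, which turned to -0.49 with total counts and -0.29 with the deposited values. miR-144 of red blood cells, miR-203 of epithelium and miR-133b of muscle are not among the members. The part that blood, epithelial or liver vesicles had in the calls was not tested.

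The 2 APC pools were less alike than the heifer pools. Over the 224 tested miRNAs, Pearson's r of their log2 levels was 0.929, within the range of 0.891 to 0.945 between an APC and a heifer pool, whereas it was 0.944 to 0.984 among heifer pools. These values are descriptions across miRNAs, which are not independent. miR-132, which gonadotropins induce in granulosa cells, differed most within a group, with 5101 and 92.2 CPM in the APC pools and 844.7, 216.1 and 6098 CPM in the heifer pools. miR-141 had 280.2 and 3723 CPM in APCs, and miR-2346 had 140.1 and 6.59 CPM. Of the miR-34 and miR-449 family, typical of ciliated cells, miR-34c had 46.7 and 840.1 CPM in APCs and 39.2, 38.7 and 499.2 CPM in heifers, and miR-449a had 21.6 and 319.6 CPM against 0, 0 and 64.0 CPM. The log2 fold changes were 1.08 for miR-34c and 2.95 for miR-449a. APC pool 2 and heifer pool 3 were the high pools for both, but not for miR-34a, which had 520.9 and 751.2 CPM against 683.6, 900.6 and 867.9 CPM (log2 fold change -0.37). miR-375, which is known from islets and granulosa cells, had 1250 and 14378 CPM in the APC pools. None of these 6 was called.

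Heifer pool 3 lay between the other heifer pools and the APC pools for many called miRNAs. It was the highest heifer pool for 20 of the 22 miRNAs called higher and the lowest heifer pool for 6 of the 7 called lower, the exceptions being miR-874, miR-6517 and miR-184. Among all tested miRNAs it was the highest heifer pool for 101 and the lowest for 78. On the log2 scale it stood, in the median of the 22, 41.3% of the way from the mean of heifer pools 1 and 2 to the mean of the APC pools. RNA concentration had been measured on a single day for the replicate 1 pools and on the next day for heifer pools 2 and 3, and no day is given for APC pool 2. The groups did not overlap for any of the 29 called miRNAs. Any single APC pool set against any heifer pool therefore had to show the direction of the full comparison, and only the sizes are informative. Between the replicate 1 pools, which share a day, the log2 differences were 0.89 to 3.58 for those called higher. For those called lower they were -2.26 to -1.21. This pair has no replicates and no test. For heifer pools 2 and 3, no APC pool is known to share the day.

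Set beside the other cow groups of the series on a scale shared by all 13 pools, both APC pools were above all 11 other pools for 4 of the 22 miRNAs called higher, miR-1246, miR-423-5p, miR-502a and miR-6520. For miR-1246 the APC pools had 29101 and 38268 CPM, and the highest other pool had 22716 CPM. Both APC pools were below all 11 other pools for 2 of the 7 called lower, miR-196a and miR-196b. The heifer pools were below all 10 pools of cows for 1 of the 22 called higher, miR-6518, which had at least 42.7 CPM in the cow pools. They were above all pools of cows for 1 of the 7 called lower, miR-204, with 126.7 to 144.8 CPM in heifers and at most 113.8 CPM in any cow pool. For miR-320a, a pool of transient cows at weeks 5 and 6 reached 168849 CPM, above both APC pools at 135543 and 158836 CPM. miR-184 was at 1028 to 3790 CPM in heifers, 53.4 to 219.6 CPM in APCs, 11.9 to 281.2 CPM in always negative cows and 27.5 to 1357 CPM in transient cows at weeks 5 and 6. These levels are descriptions, and the differences among cow groups were not tested here.

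The 43 members below the filter had at most 19 reads in any pool. The pools of the groups did not overlap for 2 of them with higher and 3 with lower levels in APCs, against 36.6% of the tested miRNAs. When limma was run with no filter, it called 0 of the 43, and none of them reached an unadjusted p-value of 0.05. miR-28, chosen among them after its values were seen, had 5 and 3 reads in the APC pools and 6, 11 and 10 reads in the heifer pools.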

How the data were processed

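Small RNA of follicular fluid EVs was sequenced with 1 library per pool. The authors trimmed reads with Cutadapt 1.11, mapped them with Bowtie2 2.2.2 to the bovine genome UMD3.1, counted miRBase miRNAs and applied TMM. The deposited values are normalized CPM, not logged; for pools outside this comparison the deposited values were recorded as signal, since their totals need not fit CPM. All deposited values (100% of 3681) equalled whole numbers of reads, within 0.1 read. The reads were recovered, scaled together with edgeR 4.0.16 (TMM), filtered with filterByExpr (minimum count 10, minimum total 15) and tested with limma 3.58.1 with a trend on log2(CPM + 5), fitted to the 5 pools. Exact permutation tests (scipy 1.17.1) were used for ratios. The steps were tested on simulated data. Alternatives included DESeq2 1.42.0, edgeR's quasi-likelihood test, other scalings, filters and pseudocounts, and leaving out each pool. miRNA loci came from RefSeq (ARS-UCD2.0, all 267 members matched by name); its coordinates served to find neighbouring and overlapping genes and are not printed, since its build is not the authors'.

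The named miRNAs are all called ones, the 10 most abundant, their other arms and cluster neighbours within 10 kb, up to 4 per list, and the 6 widest within a group among those of at least 50 CPM. Mature sequences were not used here, so seeds were not compared. The members and lists were chosen with earlier results of these data known.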

Additional observations from a re-analysis of the deposited data

How the results depend on the processing

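The main counts were 29 calls, 22 higher and 7 lower in APCs. Total-count scaling gave 61 calls (14 higher, 47 lower), 21 of them among the 29, and the deposited values gave 49 (28 lower), 28 of them among the 29. At an adjusted p-value of at most 0.05 there were 0 in each direction with limma in the main setting (38 at an unadjusted p-value under 0.05), but 19 with upper quartile factors, 8 with no filter, 6 with a pseudocount of 20 CPM, 2 with total counts and 22 by DESeq2. At 0.25, edgeR called 28 and DESeq2 34. Calls lower in APCs numbered 11 with DESeq2 and 13 with all 13 pools in the fit. Leaving out a pool gave 3 to 46 calls, 2 to 35 higher and 1 to 21 lower, with 4 lower without heifer pool 2. The count without heifer pool 1, the shallowest, was the lowest; the cause was not tested. Pools share replicate numbers only: deviations of same-numbered pools correlated at 0.168 and -0.04, and the replicate block gave 41 calls, 30 higher and 11 lower, 31 of the 41 at an adjusted p-value of at most 0.05. DESeq2 size factors, upper quartile factors, no filter, the 50 CPM filter, pseudocounts of 1 and 20 CPM and the quasi-likelihood test kept each count within 1.5 times. No called miRNA changed direction under any alternative run, and miR-874, miR-1246 and miR-184 remained called in all except the stricter adjusted p-value. Depth limits miR-502a, miR-6518, miR-6520, miR-2366, miR-196a, miR-196b and miR-30b-5p, which had under 10 reads in at least 1 pool.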
